A study of Mus musculus with 9 samples.

Results

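Prl2c5 is a mouse gene of the prolactin hormone family, 1 of the 16299 genes of the table. It was chosen by its level in the 3 groups of libraries, lowest in knockout back, intermediate in knockout tail and highest in control tail, so its own levels are described here without a test. The rule takes the row Prl2c5 as the 1 member and the other rows whose symbol starts with Prl2c for context, which were Prl2c2 and Prl2c3. These 3 were also the only prolactin family rows in the table, and Prl2c1 was not analysed here.

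RNA was sequenced from mouse melanocytes, the cells that make skin pigment, after flow cytometric sorting of epidermis, with 3 libraries in each of 3 groups. Knockout back and knockout tail libraries came from back and from tail epidermis of mice labelled Spry1flox/flox k14-Cre-ERT2. Control tail libraries came from tail epidermis of mice labelled Spry1flox/flox, so both copies of Spry1 were floxed in every group. The keratin 14 promoter drives the Cre in basal keratinocytes rather than in melanocytes, and the labels give no tamoxifen dose, time, age or animal number. There was no control back group, so body site and genotype cannot be told apart in knockout back against control tail. Since the labels do not say that replicates were separate animals, p-values measure the spread between these libraries, which may be technical.

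The products of the Prl2c genes are called proliferins. They are secreted glycoproteins known from trophoblast giant cells of the mouse placenta and from cultured fibroblasts stimulated to grow. Unlike prolactin, which signals through its receptor Prlr to JAK2 and STAT5, proliferin is known to bind the receptor for insulin-like growth factor 2 and mannose 6-phosphate, the product of Igf2r, and to act on endothelial cells. In mouse skin, proliferin transcripts are known from hair follicles and healing wounds.

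Prl2c5 (ENSMUSG00000055360.13) is a protein-coding gene on the plus strand of chromosome 13, from 13182715 to 13191923 on GRCm38 in GENCODE vM21. Prl2c2 lies from 12996125 to 13005383 and Prl2c3 from 12790816 to 12800079, both on the minus strand of the same chromosome. The transcript Prl2c5-201 has 5 exons and 844 bases and codes for 221 amino acids, against 223 for Prl2c2 and for Prl2c3. The copies are close in sequence, so the first question for their values is whether reads can be told apart. The coding sequence of Prl2c5 was identical to that of Prl2c2 at 97.0% of aligned bases, with 20 mismatches, and to that of Prl2c3 at 96.8%, with 21. Prl2c2 and Prl2c3 were identical at 99.6%, with 3 mismatches. Among coding stretches of 60 bases, the one below holds the most bases at which Prl2c5 differs from both others, 6 of them, and shows what separates its reads. Capitals mark the 7 bases at which the copies are not all alike, from coding position 306 to 365 in each.
Prl2c5: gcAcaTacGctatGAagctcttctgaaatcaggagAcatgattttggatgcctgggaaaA
Prl2c2: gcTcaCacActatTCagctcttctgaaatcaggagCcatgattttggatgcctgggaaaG
Prl2c3: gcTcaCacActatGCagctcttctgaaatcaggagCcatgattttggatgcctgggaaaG

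Of the 695 windows of 150 bases in Prl2c5-201, the read length given in the labels, 0 were found letter for letter in a GENCODE transcript of another gene. For Prl2c2 50.9% of its windows were shared, and for Prl2c3 49.9%, with each other or with the gene model Gm7040. No window of Prl2c5 was thus ambiguous by this measure, while the division of counts between Prl2c2 and Prl2c3 is uncertain. The sources used here do not say how reads with several matches were counted.

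The promoters are shown because all 3 copies were low in knockout back. RefSeq's promoter table on GRCm38.p6 held Prl2c5 and Prl2c3, and no entry was found for Prl2c2. The 250 bases before each start site are printed. Capitals mark matches on either strand to TATATAA, the letters of a TATA box. They also mark matches to the AP-1 letters, TGANTCA. AP-1 is the Fos and Jun transcription factor, and proliferin genes are known as targets of AP-1 and of the glucocorticoid receptor in mouse cell lines. Prl2c5 is on the plus strand (chr13:13182466-13182715) and Prl2c3 on the minus strand (chr13:12800080-12800329).
Prl2c5: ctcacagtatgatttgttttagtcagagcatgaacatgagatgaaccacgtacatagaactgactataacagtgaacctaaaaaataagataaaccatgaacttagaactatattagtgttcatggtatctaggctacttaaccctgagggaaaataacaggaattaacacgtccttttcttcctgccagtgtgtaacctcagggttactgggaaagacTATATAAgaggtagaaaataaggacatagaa
Prl2c3: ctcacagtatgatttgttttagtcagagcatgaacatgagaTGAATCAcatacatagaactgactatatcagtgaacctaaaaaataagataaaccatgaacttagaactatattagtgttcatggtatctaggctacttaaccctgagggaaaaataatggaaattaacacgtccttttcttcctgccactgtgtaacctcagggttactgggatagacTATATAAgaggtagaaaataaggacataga

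The windows were identical at 241 of 249 aligned bases. TATATAA began at position -31 in Prl2c5 and at -30 in Prl2c3, counted from the start site, and 3.04% of all 32851 promoter windows of this length hold it. TGANTCA was found once in Prl2c3, at position -209, and not in Prl2c5, against 6.75% of all windows. The sequences searched without a match in either were CACGTG (6.02% of all windows), TCATGTG (3.25%), both forms of the E-box read by the melanocyte factor Mitf, and TTCNNNGAA (7.02%), the STAT sequence. Both strands were searched, and no motif overlapped another. A match or its absence describes these letters only.

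The values below are whole counts recovered from the deposited log2 values, and normalised counts, in which each library's size factor has been divided out. Library totals lay between 47.7 and 57.1 M counts for knockout back, between 45.7 and 65.6 M for knockout tail and between 66.3 and 67.9 M for control tail, without Dct, Pmel and Tyrp1, whose counts could not be resolved. Zero counts were most frequent in the first knockout back library (4628 genes) and the second (6127 genes), while the remaining 7 libraries had between 854 and 1739 such genes. In the authors' deposited values, 2 libraries (the third of knockout back and the third of knockout tail) have in every gene the same mean as the remaining 7, which shows that a shift between these sets had been removed. Spry1, the floxed gene, had 2120, 0 and 761 counts in knockout back, 4446, 2082 and 508 in knockout tail, and 1915, 1298 and 1587 in control tail, and since the Cre acts in keratinocytes this does not check the labels. Melanocyte markers had high counts in every group. The summed normalised count of the 7 of 10 melanocyte markers with recovered counts ran from 936196 to 1013855 in knockout back, from 761335 to 900283 in knockout tail and from 631192 to 655771 in control tail. The sum leaves out Pmel and Tyrp1. On the deposited log2 scale 5 of the 10 were higher in back than tail within the knockout (median -0.002). Pmel (-0.94), Tyrp1 (-0.65) and Tyr (-0.56) were among the lower ones and did not pass. Against control tail 8 of the 10 were higher (median 0.29). Mlana alone was called in each comparison, where 0.411% and 0.387% of all genes were called higher. It rose in knockout back, by 0.95 against knockout tail and by 0.97 against control tail (limma adjusted p of 0.021 and 0.036). With 1 library left out these calls held in 3 and in 2 of 9 fits. Neither held with limma-voom on the recovered counts (adjusted p of 0.18 and 0.14).

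Prl2c5 was abundant in control tail melanocytes, lower in knockout tail and near 0 in knockout back. It had 10, 17 and 100 counts in the knockout back libraries, given by replicate number as in all lists that follow. Knockout tail libraries had 29261, 43519 and 13345 counts, and control tail libraries had 211381, 220708 and 161146. The 3 groups did not overlap. In bulk RNA, fewer cells that make a transcript and less of it per cell cannot be told apart.

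The normalised count of Prl2c5 was 42.9 ± 47.9 in knockout back, 25265 ± 10751 in knockout tail and 159937 ± 26744 in control tail (mean ± SD, n = 3 each). Knockout tail was 6.33-fold lower than control tail, and the closest libraries of these groups differed 3.55-fold. Knockout back was 589-fold lower than knockout tail, with 157-fold between the closest libraries, and 3730-fold lower than control tail. Both steps were thus in the same direction, and the step between body sites within the knockout was far larger than the step between genotypes in tail. Groups that do not overlap in the lower direction were found in 9.31% of all 16296 recovered genes for knockout tail against control tail. They were found in 10.4% for knockout back against knockout tail and in 15.6% for knockout back against control tail.

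**Figure D1:**
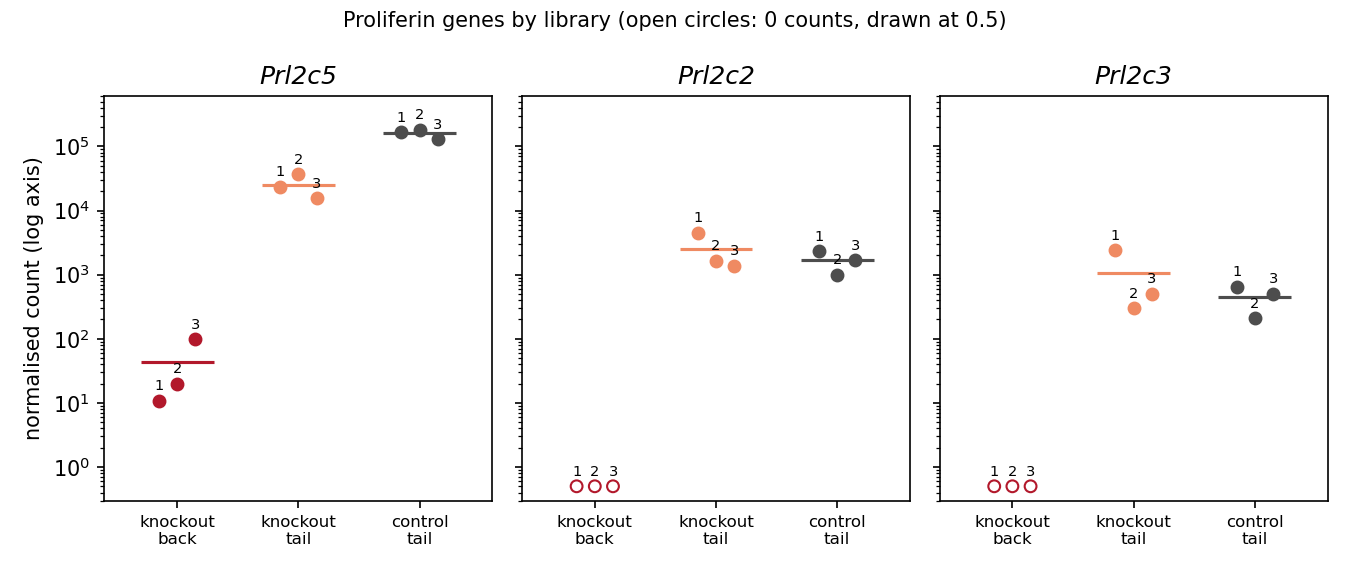
Normalised counts (log axis) of Prl2c5, Prl2c2 and Prl2c3 in each library, with the replicate number beside each point and a bar at the group mean; open circles stand for 0 counts and are drawn at 0.5. Prl2c5 falls into 3 separate levels, while Prl2c2 and Prl2c3 overlap between knockout tail and control tail and are at 0 in all 3 knockout back libraries.

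As a share of all recovered counts, Prl2c5 made up no more than 0.000175% of any knockout back library. It made up 0.0446, 0.0687 and 0.0292% of the knockout tail libraries, and 0.319, 0.325 and 0.242% of the control tail libraries. Levels of different genes are set side by side as normalised counts per kilobase of exon. On that scale Prl2c5 was at 36.4 ± 40.7 in knockout back, 21466 ± 9134 in knockout tail and 135885 ± 22722 in control tail (SD, n = 3 each). It was ranked among 15018 genes with a recovered count and an annotated length, which leaves out Dct, Pmel and Tyrp1. Its rank lay between 64 and 170 in the knockout tail libraries and between 6 and 12 in the control tail libraries. Mlana, a melanosome protein, was at 499822 ± 144325 per kilobase in knockout back and 281788 ± 26872 in control tail. Tyr, the enzyme that starts melanin synthesis, was at 24866 ± 10231 per kilobase in knockout back and 25477 ± 6136 in control tail. Prl2c5 thus lay between these pigment genes in control tail and below both in knockout back.

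**Figure D2:**
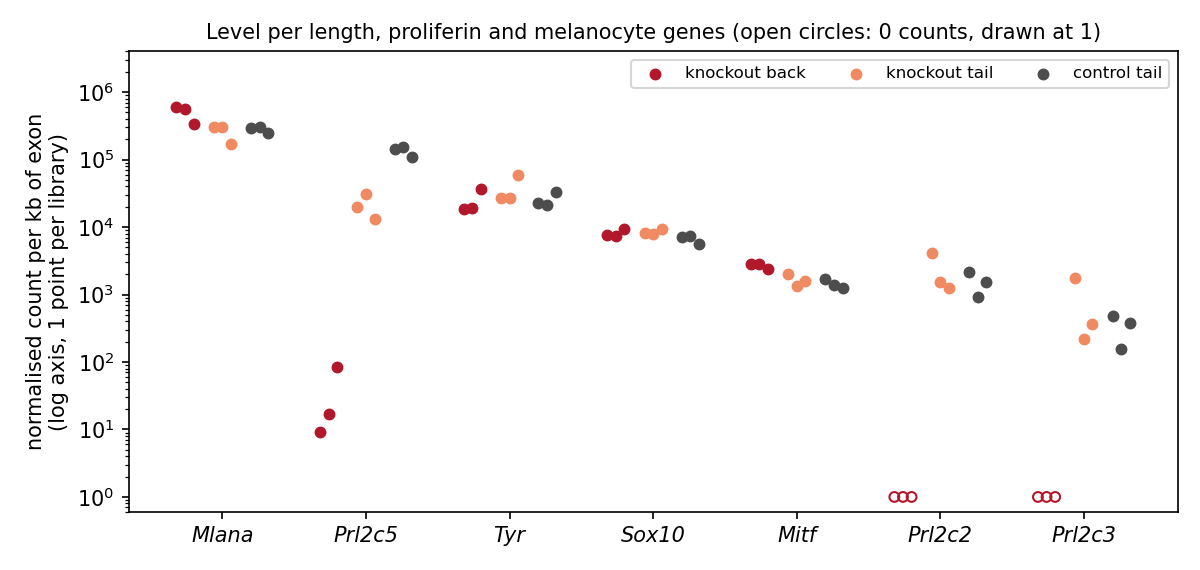
Normalised count per kilobase of exon (log axis), 1 point per library, for Prl2c5, Prl2c2 and Prl2c3 and for the melanocyte genes Mlana, Tyr, Sox10 and Mitf; open circles stand for 0 counts and are drawn at 1. Prl2c5 lies between Mlana and Tyr in control tail and below Mitf in knockout back, while each melanocyte gene has all its points within about 1 decade.

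The order was the same within each library set. The third knockout back library had 1471 genes at 0 counts, within the range of the tail libraries, and 98.0 normalised counts of Prl2c5 against 15429 in the third knockout tail library, the other member of its set. Within the set of 7, the mean was 15.3 in the 2 knockout back libraries, 30183 in the 2 knockout tail libraries and 159937 in the 3 control tail libraries. Knockout back was 1970-fold lower than knockout tail there, and knockout tail 5.30-fold lower than control tail. The smaller set holds no control, so its knockout tail library has no control of its own set.

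The authors' deposited log2 values of Prl2c5 give smaller steps. They were 6.96, 7.07 and 10.17 in knockout back, 13.25, 13.87 and 15.27 in knockout tail, and 16.04, 16.17 and 15.69 in control tail. On this scale the third library is the highest of each knockout group, although the third knockout tail library had the lowest count of its group. A shift of 2.62 between the sets had been removed from this gene, against a median absolute shift of 0.45 over all genes, and before that step 7.98 is the value that 0 counts give. On the deposited scale group means differed by -1.84 between knockout tail and control tail, by -6.06 between knockout back and knockout tail and by -7.90 between knockout back and control tail. In the order of all genes on that scale Prl2c5 came at place 16 from the most negative in the first of these comparisons, and at place 1 in the others. Napsa was next to it between knockout back and knockout tail, at -4.64, and the hair keratin gene Krt36 between knockout back and control tail, at -5.96.

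The other proliferin genes were also low in back, while their tail groups overlapped. Prl2c2 had 0, 0 and 0 counts in knockout back, 5614, 1951 and 1186 in knockout tail, and 2963, 1205 and 2071 in control tail. The tail groups overlapped, and knockout back lay below both. In knockout back 10.4% of all genes lay below knockout tail without overlap, and 15.6% below control tail. Its normalised count was 2517 ± 1751 in knockout tail and 1670 ± 670 in control tail (SD, n = 3). With a floor of 3 counts per library, knockout back was at least 780-fold lower than knockout tail and at least 518-fold lower than control tail. Such floors cover counting error only.

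By limma across all genes, with Benjamini-Hochberg adjustment over the 16299 genes and a threshold of 0.05, Prl2c2 fell in knockout back against knockout tail. The difference on the deposited scale was -3.42 ± 0.46 (SE), limma adjusted p = 0.022 (0.011 to 0.21 over the alternatives), and each knockout back library was lower than each knockout tail library. It also fell against control tail, by -2.73 ± 0.46, adjusted p = 0.046. Of all genes, 1.09% were called lower in knockout back than in knockout tail and 0.411% higher. Against control tail 0.614% were called lower and 0.387% higher. The call against knockout tail was lost without the first control tail library (limma adjusted p = 0.056), without any 1 knockout tail library (0.085, 0.062 and 0.095) and without the first knockout back library (0.068). Against control tail it was lost without any 1 library other than the third knockout back library, with limma adjusted p of 0.064 to 0.138. For knockout tail against control tail the difference was 0.69 ± 0.46, limma adjusted p = 0.9997.

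Prl2c3 had 0, 0 and 0 counts in knockout back, 3002, 356 and 435 in knockout tail, and 823, 253 and 626 in control tail. The order was that of Prl2c2, with the first knockout tail library highest for both genes and overlap between the tail groups. Knockout back was at least 333-fold lower than knockout tail and at least 141-fold lower than control tail. Prl2c3 did not pass, with differences of -2.31 ± 0.50 against knockout tail (limma adjusted p = 0.057) and -1.59 ± 0.50 against control tail (adjusted p = 0.093). With limma-voom on the recovered counts both passed, adjusted p = 0.015 and 0.019, and without the third knockout back library the difference from knockout tail passed, adjusted p = 0.034.

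The shares of the 3 copies follow from these counts and are given as a description, since the level of Prl2c5 was used to choose it. Prl2c5 made up 77.3, 95.0 and 89.2% of the counts of the 3 genes in knockout tail, against 98.2, 99.3 and 98.4% in control tail. Counts of Prl2c2 were 19.2, 4.48 and 8.89% of those of Prl2c5 in knockout tail, against 1.402, 0.546 and 1.29% in control tail. In the first and second knockout back libraries the copies cannot be compared, since a count of 0 for Prl2c2 still allows up to 30% and 17.6% of the counts of Prl2c5. In the third it allows up to 3% of the 100 counts, below the ratios of knockout tail but above those of control tail.

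The region around Prl2c5 was described in the same way. Within 1 Mb of Prl2c5, 21 genes other than Prl2c2 and Prl2c3 had a row with recovered counts, a set looked at after the values were seen. By limma 0 of the 21 passed in knockout tail against control tail, where 0 of 16299 genes (0.0%) passed. Their median difference was -0.02, where that of all genes was -0.05. The median difference in knockout back against knockout tail was -0.31, where that of all genes was -0.18. In that comparison 1 of the 21 passed, against 1.5% of all genes. That gene was Gpr137b, a lysosomal membrane protein whose start lies 174905 bases beyond that of Prl2c5. Its normalised count was 15985 in knockout back, 64788 in knockout tail and 46363 in control tail, and its difference between knockout back and knockout tail was -1.96 (limma adjusted p = 0.0057), and it passed without any 1 library. Against control tail Gpr137b (-1.53, limma adjusted p = 0.028) and Edaradd (-2.22, limma adjusted p = 0.047) passed, where 1.0% of all genes did. With 1 library left out they passed in 3 and 1 of 9 fits, and Edaradd did not pass with limma-voom (adjusted p = 0.067). Gm7040, which shares read-length windows with Prl2c2 and Prl2c3, had a mean normalised count of 0 in knockout back, 53.1 in knockout tail and 34.0 in control tail, and a difference of -0.65 between knockout back and knockout tail (limma adjusted p = 0.058).

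**Figure D3:**
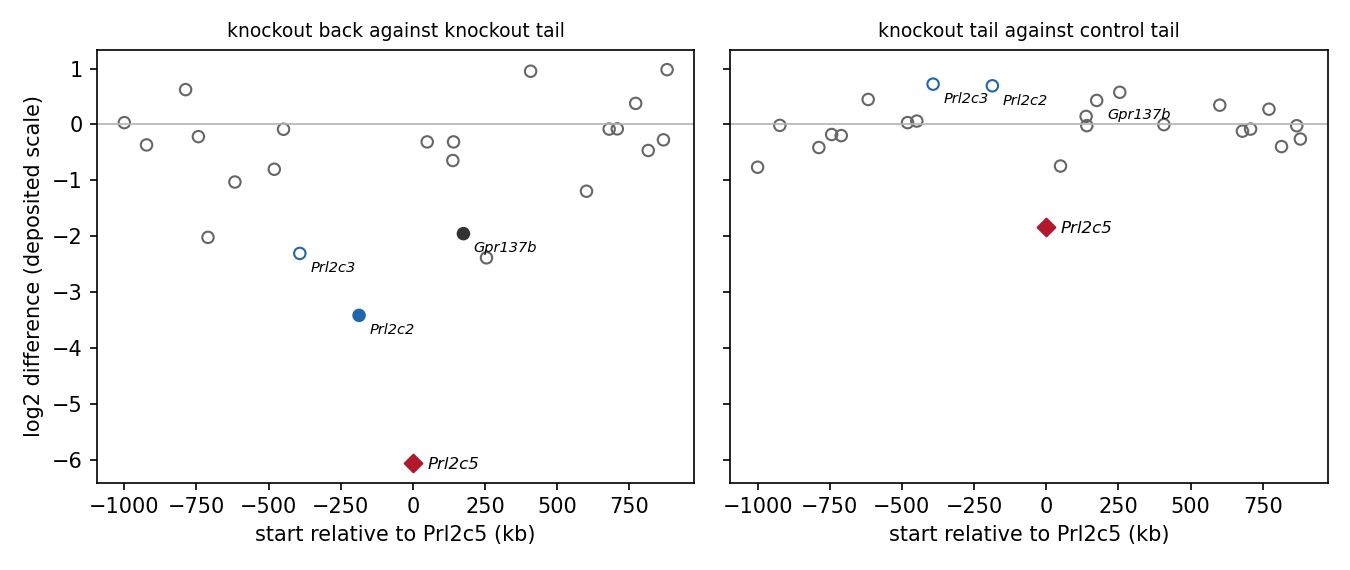
Log2 difference on the deposited scale for genes within 1 Mb of Prl2c5, against the distance of their start from that of Prl2c5 in kb, for knockout back against knockout tail (left) and knockout tail against control tail (right); filled circles passed limma at an adjusted p of 0.05, blue marks Prl2c2 and Prl2c3, and the red diamond is Prl2c5, which was not tested. Prl2c5 is the lowest point in both panels, at -6.06 and -1.84, and the other proliferin genes lie low on the left only.

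The receptors varied without a common order of groups. Igf2r, the proliferin receptor, had normalised counts of 1262 ± 1032 in knockout back, 963 ± 549 in knockout tail and 991 ± 458 in control tail (SD, n = 3). Prlr, the prolactin receptor, had 4187, 0 and 465 counts in knockout back, 108, 0 and 1052 in knockout tail, and 635, 34 and 0 in control tail, so it was at 0 in a library of each group. Ghr, the growth hormone receptor, had 0, 1014 and 742 counts in knockout back, 1227, 2384 and 1647 in knockout tail, and 2404, 1832 and 1384 in control tail. With M6pr, the other mannose 6-phosphate receptor, 0 of these 4 genes passed in any of the 3 comparisons, too few genes to set against the shares of all genes called.

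Of the 10 genes of the JAK2 and STAT5 list, 0 passed by limma in any of the 3 comparisons, which is near the shares of all genes called, 0.0% in knockout tail against control tail, 1.5% in knockout back against knockout tail and 1.0% in knockout back against control tail. The median difference of the list was 0.41 in knockout back against knockout tail, where that of all genes was -0.18. Of the 10, 6 were higher in knockout back, among them Socs1 (1.03), Pim1 (1.03), Socs3 (0.92) and Cish (0.63). The remaining genes, with Socs2 among them, were lower. Socs2, a feedback inhibitor of this pathway, had 684, 0 and 1084 counts in knockout back, 3319, 4971 and 1922 in knockout tail, and 4961, 3976 and 4298 in control tail. Knockout back lay below both tail groups, and the difference from knockout tail was -2.15 (limma adjusted p = 0.11). Of all genes, 10.4% lay below knockout tail without overlap and 15.6% below control tail.

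Some AP-1 genes were higher in knockout back. Of 8 AP-1 factors, 4 rose and 0 fell in knockout back against knockout tail, where 0.411% of all genes were called higher, with a median difference of 1.43. Fosb differed by 2.24, Fos by 1.47, Junb by 1.46 and Atf3 by 3.50 (limma adjusted p of 0.037, 0.040, 0.028 and 0.025). Fosb had 13201, 8905 and 56694 counts in knockout back, 2352, 4874 and 6293 in knockout tail, and 1534, 1687 and 2147 in control tail. These calls depended on the fit: with limma-voom on the recovered counts 0 of the 8 passed. With 1 library left out, 0 passed without the first control tail, the first knockout tail, the third knockout tail or the first knockout back library, and 1 to 5 without another. In knockout back against control tail 1 of the 8 passed, Fosb, with a difference of 2.63 (limma adjusted p = 0.039), and Fos, Junb and Atf3 did not (limma adjusted p of 0.079, 0.054 and 0.057). In knockout tail against control tail 0 passed, with a median of -0.47, and of 0.02 on the scale of log2 of the normalised count plus 1. Of 10 genes of the glucocorticoid receptor list, 1 rose in knockout back against knockout tail, Dusp1, a phosphatase that acts on MAP kinases, by 1.396 (limma adjusted p = 0.041). It was not called with limma-voom, and with 1 library left out it was called in 1 of 9 fits, the one without the third knockout back library. Nr3c1, the receptor itself, differed by -0.21 (adjusted p = 0.84).

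Transcripts of other epidermal cells varied between libraries. The summed normalised count of 9 of 10 basal and follicle keratinocyte markers ran from 58587 to 263069 in knockout back, from 23458 to 387426 in knockout tail and from 65961 to 199676 in control tail. The third knockout tail library had the highest sum and the lowest Prl2c5 of its group. In the other groups the library with the highest sum had the highest Prl2c5. These were the third knockout back library (263069) and the second control tail library (199676). The 7 wound-activated keratinocyte markers summed to 6776 to 82861 in knockout back, 36883 to 396689 in knockout tail and 23165 to 46205 in control tail. Of these, Krt6b fell in knockout back against knockout tail, with a difference of -3.55 on the deposited log2 scale (limma adjusted p = 0.021). Krt6b, a keratin of activated epidermis, had 94, 0 and 15467 counts in knockout back, 5486, 5790 and 97073 in knockout tail, and 1313, 1285 and 301 in control tail. Its counts overlap between knockout back and knockout tail, and it was not called with limma-voom on the recovered counts (adjusted p = 0.56). With 1 library left out Krt6b was called in 5 of 9 fits (not without the first control tail library or any 1 knockout tail library). The 7 differentiated keratinocyte markers summed to 35583 to 207585 in knockout back, 13877 to 149765 in knockout tail and 27217 to 109941 in control tail.

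Fibroblast markers were few, with sums of 400.0 to 2388 in knockout back, 1598 to 3228 in knockout tail and 925 to 1985 in control tail over 4 of 6 markers. On the deposited log2 scale Dcn (0.83) and Col3a1 (0.05) were higher in knockout back than in knockout tail, and Col1a1 (-0.14) and Col1a2 were lower. The median of the 4 was -0.04, where that of all genes was -0.18. By limma 1 of the 4 was called lower, where 1.09% of all genes were. That gene was Col1a2, a collagen, with a difference of -1.90 (limma adjusted p = 0.045). With limma-voom it was not called (adjusted p = 0.18), and with 1 library left out it was called in 1 of 9 fits, the one without the third knockout back library. It had 45, 38 and 976 counts in knockout back and 1658, 1826 and 2173 in knockout tail. Those of Langerhans and myeloid cells, 4 of 7, summed to 1815 to 12685, 513 to 6006 and 138 to 401 in the same order of groups. The 2 of 5 T cell markers summed to at most 561 in any library, and Alas2, the 1 of 4 blood markers, to at most 1304. Of the 5 endothelial and 5 mast cell markers, 0 had a row in the table used here. The part of these cells in the Prl2c5 levels was not tested.

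Sex-linked transcripts also differed between libraries. Xist, the transcript of the inactive X, had 1313, 1266 and 2699 counts in knockout back, 5, 19 and 6364 in knockout tail, and 5354, 1711 and 4908 in control tail. The Y-linked Eif2s3y had 3275, 2543 and 3922 counts in knockout back, 4890, 5677 and 0 in knockout tail, and 154, 0 and 9 in control tail. These patterns went largely with group. Every control tail library combined at least 1711 counts of Xist with at most 154 of Eif2s3y. Replicates 1 and 2 of knockout tail showed the reverse, and all 3 knockout back libraries carried both transcripts. The third knockout tail library, unlike the rest of its group, had more Xist than any control and 0 counts of Eif2s3y. Its 13345 counts of Prl2c5 were the lowest of the tail libraries. As 1 library, it does not separate sex from group. The part of sex in the Prl2c5 levels was not tested, and the labels used here give no sex.

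Both steps together were seen in few genes. Knockout back lay below knockout tail and knockout tail below control tail without overlap in 124 of 16296 genes (0.761%). Among these, 7 had a control mean of at least 100 normalised counts and at least 4-fold between the means at each step, limits set after the values were seen. Beside Prl2c5 they were Ankdd1b, Bglap2, an osteocalcin gene, Eef1a2, a translation elongation factor, Sncg, a synuclein, Wfdc18 and the zinc finger gene Zfp619. Wfdc18 had 0, 0 and 0 counts in knockout back, 1786, 187 and 865 in knockout tail, and 4280, 8192 and 5313 in control tail. Sncg had 4, 0 and 0 counts in knockout back, 258, 171 and 376 in knockout tail, and 2270, 1487 and 2721 in control tail.

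The genes most like Prl2c5 were found by Pearson's r over the 9 deposited values, which describes these libraries and has no test. The 10 highest were Cabcoco1, D5Ertd605e, Kdelr3, Ptpre, Zfp280c, Cables1, Gm9176, Cyren, Serpinf1 and Scamp5, with r of 0.985 to 0.996. Each had at most 36 counts in the first and second knockout back libraries, the ones with the most genes at 0. Serpinf1, which encodes pigment epithelium-derived factor, had 36, 6 and 255 counts in knockout back, 1804, 2305 and 863 in knockout tail, and 3693, 4090 and 3418 in control tail. Its 3 groups did not overlap in counts, an order found in 0.761% of all genes. A choice by likeness to Prl2c5 favours genes with this order. Kdelr3, a receptor that returns proteins to the endoplasmic reticulum, had 0, 0 and 148 counts in knockout back, 319, 654 and 597 in knockout tail, and 1115, 1330 and 1001 in control tail, again without overlap. Scamp5, the last of the 10, had 633 counts in the third knockout back library and 1601 in the third knockout tail library, above the 1092 to 1201 of control tail.

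**Figure D4:**
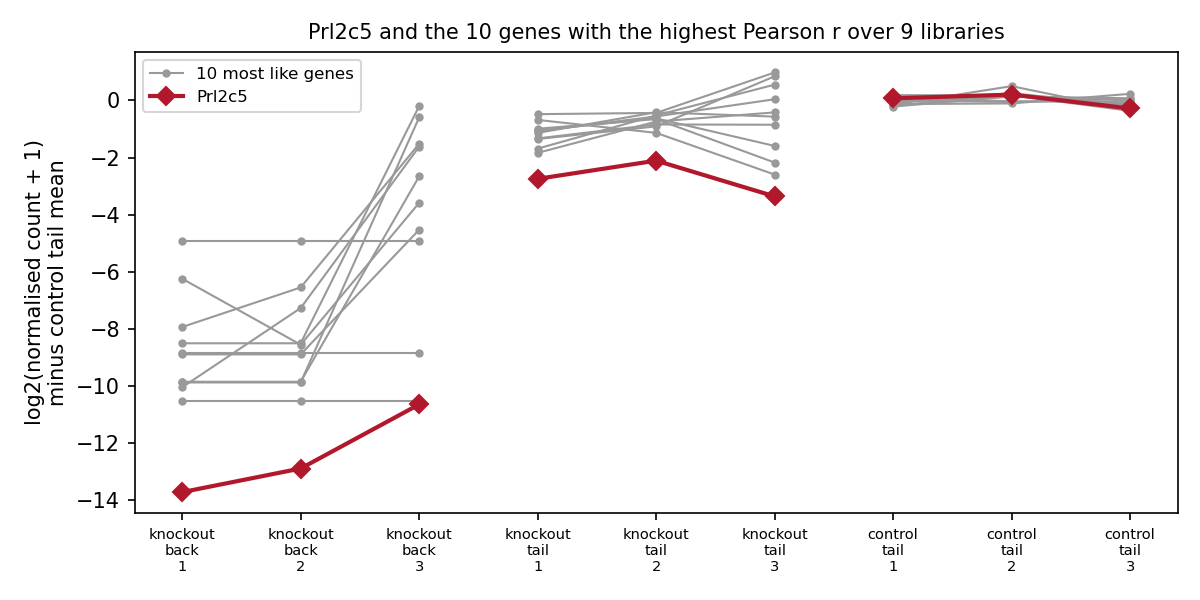
Log2 of the normalised count plus 1, minus the mean of the control tail libraries, for Prl2c5 (red) and the 10 genes with the highest Pearson r to it (grey) in the 9 libraries; lines join libraries of 1 group for reading only. Prl2c5 is below the grey genes in all knockout libraries, though close to the lowest of them in the third knockout back library. The grey genes are spread more widely in knockout back than in knockout tail.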

How the data were processed

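RNA of sorted melanocytes was made into libraries with a SMART-Seq v4 kit and sequenced in pairs of 150 bases, per the labels' protocols. The authors' deposited table holds log2 values of 16299 genes in 9 columns. The submitters' processing notes name DESeq2 and GRCm38. No aligner, counting program or strandedness is named in the sources used here.

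The values followed a variance-stabilising curve on which 0 counts give 7.98. In every gene, the set made of the third library of each knockout group had the mean of the other 7 to within 7.14e-09. Undoing both gave whole counts for 16296 genes, within a tolerance of 0.004. The recovery and the fit were tested on simulated data. The fit was simulated with independent noise, without a removed set shift or libraries rich in 0 counts, so its test does not cover these.

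limma (version 3.58.1, R 4.3.3, trend and robust) was the main test, on the deposited values, with group as its single term and 9 libraries in the fit. The smaller set holds no control library, so making the set means equal can remove part of a difference between knockout and control groups. The limma p-values do not account for that step. Alternatives were a filter on low values, no trend or robust moderation, the library set as a term, limma-voom, log2 of the normalised count plus 1 or 16, omitted libraries and a replicate block. Columns left unused numbered 0. Named were Prl2c5, all Prl rows, list members and markers, the 10 genes of highest Pearson r, and genes next in order. Members and lists were chosen with earlier results of these data known. Sequences were aligned with Biopython 1.88, from GENCODE vM21 and RefSeq.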

Additional observations from a re-analysis of the deposited data

How the results depend on the processing

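Prl2c5 kept its direction in all 3 comparisons under every alternative run. Its difference of -1.84 between knockout tail and control tail became -2.65 when the library set was added to the model, -2.69 with limma-voom, and -2.74 with log2 of the normalised count plus 1 and -2.74 plus 16. Between knockout back and knockout tail -6.06 became -9.75, -9.68 and -8.96 in the last 3 of these, and -3.96 without the first and second knockout back libraries. Between knockout back and control tail -7.90 became -12.44, -12.42, -11.69 and -5.79. With 1 library left out the ranges were -2.41 to -1.39, -7.11 to -5.49 and -8.95 to -7.34.

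Counts of called genes moved more. For knockout tail against control tail 0 genes (814 at an unadjusted p under 0.05, and 0 with limma-voom) became 10 with the set term, 4 with plus 1 and 7 with plus 16, and stayed 0 to 0 with 1 library left out. For knockout back against knockout tail 244 became 71, 139 and 35 in these settings, 0 without the first and second knockout back libraries, 1637 in the 7 libraries of the larger set, and 3 to 1972 with 1 library left out. For knockout back against control tail 163 became 545 with the set term, 338 with plus 1, 317 with limma-voom, 471 without trend and robust moderation, 557 with the filter on low values, 0 without both back libraries, 2371 in the 7 libraries, and 0 to 2804 with 1 library left out. Among the fits with 1 library left out, 1972 and 2804 genes were called without the third knockout back library, and 3 against knockout tail without the third knockout tail library. Calls of named genes under these settings were added after seeing the data. The cause was not tested. The median over all genes between knockout back and knockout tail was -0.18, and -0.73 with plus 1.

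Deviations of same-numbered libraries from their group means on the deposited scale gave 0 of 9 correlations above 0.1. The lowest, -0.70, was between the third library of knockout back and the third of knockout tail. In every gene these form the set given the mean of the other 7, which tends to set their deviations against each other. The third replicates therefore cannot show on this scale whether libraries pair. With the replicate block 21 and 42 genes were called in the comparisons of knockout back with knockout tail and with control tail, and Prl2c2 was not (limma adjusted p = 0.066 and 0.073).

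Without the first and second knockout back libraries Prl2c2 was not called either (limma adjusted p = 0.21 and 0.41). Of the 10 genes most like Prl2c5, 2 were shared with the 10 highest by Spearman's rho, 3 on the log2 normalised scale and 5 without the first and second knockout back libraries.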

Other observations

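Of 12 angiogenic ligands and receptors listed for comparison, since proliferin is known to act on endothelial cells, 8 had a row. In knockout back against knockout tail 1 rose and 0 fell by limma, against 0.411% and 1.09% of all genes. That gene was Nrp2, a co-receptor for vascular endothelial growth factors, with 1476, 1190 and 467 counts in knockout back, 23, 21 and 19 in knockout tail, and 188, 45 and 23 in control tail. Its difference was 2.18 against knockout tail and 1.95 against control tail (limma adjusted p of 0.031 and 0.046). With limma-voom it was called in neither comparison (adjusted p of 0.080 and 0.094), and with 1 library left out each call held in 1 of 9 fits, the one without the third knockout back library. Fgf2, a growth factor, had 13, 20 and 113 counts in knockout back, 129, 92 and 82 in knockout tail, and 314, 294 and 603 in control tail. Its difference was -0.64 between knockout tail and control tail (limma adjusted p = 0.97), with no overlap of counts, as in 9.31% of all genes in that direction. Angpt2, an endothelial ligand, had 0, 596 and 418 counts in knockout back, 40, 182 and 311 in knockout tail, and 2070, 1728 and 730 in control tail, and did not pass in either comparison with control tail (limma adjusted p of 0.19 and 0.87).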
